A study of Mus musculus with 11 samples.

Results

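The 7 genes F13a1, Dhrs3, Cwc27, 4921525O09Rik, 9430078K24Rik, Gm20755 and Mir721 were picked on their ATAC-seq signal, because most of the peaks assigned to each were higher in naive CD4 T cells with the strongest T cell receptor reporter signal than in those with the weakest. Together they hold 70 of the 45508 peaks in the authors' table. 4921525O09Rik has 20 of them, 9430078K24Rik 16, Cwc27 8, Dhrs3 and F13a1 7 each, and Gm20755 and Mir721 6 each. The members were chosen by the difference between populations D and A, so every D against A value below is a description of that choice and not a test of it. The comparison of population C with population B uses libraries that the choice did not, and it was tested.

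All cells came from spleen and lymph nodes of untreated mice on the C57/BL6 background that carry the Tg(Nr4a1-EGFP)GY139Gsat transgene, a bacterial artificial chromosome that makes green fluorescent protein from Nr4a1 (Nur77) regulatory DNA, and the Foxp3tm1Flv allele, which marks Foxp3-expressing cells red. Every population shares both alleles and the same gate, which kept CD4+ cells that were Foxp3-RFPneg and CD44lo. Population A was Nur77-GFPlo and Ly6C+ (n = 2, mice 1 and 3), B was Nur77-GFP intermediate and Ly6C+ (n = 3), C was Nur77-GFP intermediate and Ly6C- (n = 3), and D was Nur77-GFPhi and Ly6C- (n = 3). Each library was made from 10000 sorted cells, and libraries with the same number came from the same mouse. The reporter is read as protein in the sort, so it stands in for receptor signalling and does not measure it directly, and age and sex of the mice are not given in the sources used here.

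ATAC-seq uses the Tn5 transposase to cut and tag DNA that is not packed into nucleosomes, so the number of reads over a site reflects how accessible it is. Accessible sites are mostly promoters and distal elements such as enhancers, and a distal element can act on a gene other than the nearest. Naive T cells receive weak receptor signals from self-peptides, which raise Nur77 and lower Ly6C without activating the cell. In bulk libraries, a larger share of cells with an open site and a site that is more open in every cell cannot be told apart.

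The genes have little in common by function. Dhrs3 encodes a membrane-bound short-chain dehydrogenase that reduces retinaldehyde to retinol and so holds back the synthesis of retinoic acid. F13a1 encodes the catalytic subunit of coagulation factor XIII, a transglutaminase that cross-links fibrin and is best known from platelets, monocytes and macrophages. Cwc27 encodes a cyclophilin-type protein of the spliceosome. Mir721 is a microRNA gene, and 4921525O09Rik, 9430078K24Rik and Gm20755 are annotated as long noncoding RNAs, whose function is not described here.

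A promoter window of each protein-coding member is shown because 2 of them lie in peaks that were higher in D and the third lies in a peak that was not. Dhrs3 and F13a1 have other RefSeq promoter windows that are not printed. Those of Dhrs3 lie partly in the same peak, and that of F13a1 lies in no listed peak. The sequences are from RefSeq (GRCm38.p6), 300 bases each in the direction of transcription, and the capitals mark every match, on either strand, to 12 short motifs. The window of Dhrs3 is chr4:144892577-144892876 on the plus strand, that of F13a1 chr13:37050195-37050494 on the minus strand and that of Cwc27 chr13:104816904-104817203 on the minus strand.
Dhrs3 promoter: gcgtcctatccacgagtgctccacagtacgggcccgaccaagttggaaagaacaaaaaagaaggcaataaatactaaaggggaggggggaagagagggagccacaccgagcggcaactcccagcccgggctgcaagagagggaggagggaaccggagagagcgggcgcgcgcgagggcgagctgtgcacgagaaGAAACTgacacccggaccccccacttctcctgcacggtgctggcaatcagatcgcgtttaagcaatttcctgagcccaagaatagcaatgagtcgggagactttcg
F13a1 promoter: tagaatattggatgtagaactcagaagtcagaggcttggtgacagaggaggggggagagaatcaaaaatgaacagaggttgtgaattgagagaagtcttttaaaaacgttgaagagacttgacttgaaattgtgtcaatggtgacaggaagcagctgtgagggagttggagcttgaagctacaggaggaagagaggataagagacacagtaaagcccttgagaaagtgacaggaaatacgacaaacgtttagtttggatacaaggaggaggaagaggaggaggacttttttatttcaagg
Cwc27 promoter: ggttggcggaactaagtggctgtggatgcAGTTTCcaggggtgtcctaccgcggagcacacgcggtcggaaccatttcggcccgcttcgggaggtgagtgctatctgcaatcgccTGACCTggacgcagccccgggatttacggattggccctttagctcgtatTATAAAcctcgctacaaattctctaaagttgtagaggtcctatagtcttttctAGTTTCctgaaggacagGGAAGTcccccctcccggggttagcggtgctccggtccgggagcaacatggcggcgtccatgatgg

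The motifs searched, with the share of 32817 RefSeq promoter windows that hold each, were the AP-1 site TGAGTCA (5.2%), the cAMP response element TGACGTCA (1.79%), the NBRE of the Nr4a factors AAAGGTCA (1.51%) and the nuclear receptor element AGGTCA (16.3%), which is contained in the NBRE. The others were a Runx site TGTGGT (16.8%), an Ets site GGAAGT (23.8%), the NFAT core GGAAAA (23.3%), a TCF site CTTTGAT (3.73%), an E-box CACCTG (20.2%), a GC box GGGCGG (35.6%), a TATA box TATAAA (13.6%) and an Irf element GAAACT (15.8%). The Dhrs3 window held 1 match, an Irf element, and the F13a1 window held none of the 12. The Cwc27 window held 2 Irf elements and 1 match each to the nuclear receptor element, the Ets site and the TATA box. The G and C content was 58.7% for Dhrs3, 42.7% for F13a1 and 57.0% for Cwc27, against a median of 52.7% over all windows. A match describes the letters only.

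The mature microRNA of Mir721 is shown because its 6 peaks carry the name of this microRNA although none of them lies over it. It is encoded at chr5:136375777-136375797 on the minus strand, and the capitals mark its seed, bases 2 to 8.
mmu-miR-721: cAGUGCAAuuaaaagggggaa
The RefSeq table holds 6 other mouse microRNAs with this seed, miR-130a-3p, miR-130b-3p, miR-130c, miR-301a-3p, miR-6341 and miR-6389.

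Values are given as rppm, the authors' name for reads scaled to a common total (RPM). The read totals behind this scaling were not stated and were calculated back from the smallest step between values. They ran from 2597176 (population D of mouse 1) to 36859228 reads (population D of mouse 3). At 5 rppm a peak held 13 reads in the shallowest library and 184 in the deepest. The lowest read number at any of the 70 peaks was 2, in both libraries of population A. Values are mean ± SD over libraries, and log2 differences are limma estimates on log2(rppm + 1) with their standard error, which understate ratios at low values. Peaks were listed at all 10 T cell genes checked, at 10 of 12 monocyte and macrophage genes (not at Lyz2 and Csf1r), at 3 of 8 B cell genes and at 2 of 8 platelet genes.

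In population D, 57 of the 70 peaks were higher than in A past an adjusted p of 0.05 and none was lower. Over all peaks 8.7% were called higher and 3.74% lower, and since this contrast chose the genes nothing is read from the gap. The estimate was positive at 68 of 70 peaks, with a median log2 difference of 1.09, while the median over all peaks was -0.04. Every D library lay above both A libraries at 63 of the 70, which held for 19.3% of all peaks. The 57 peaks had a median level of 2.3 rppm in A and 6.98 in D, and the other 13 had 5.42 in A and 7.45 in D. The split into 57 and 13 was made on this same contrast, which contains the A values, so nothing is read from the higher median of the 13 in A. Without mouse 3, which leaves 1 library in A, the median log2 difference over the 70 peaks was 1.11. It was 1.19 without the A library of mouse 1 and 1.08 without that of mouse 3, and each of these fits also rests on 1 A library.

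The description "nearly all peaks" held for 5 of the 7 genes. F13a1, Dhrs3, Gm20755 and Mir721 had every peak past the threshold and Cwc27 had 7 of 8. Among the 1911 genes with at least 6 peaks, 5 had every peak called higher in D, and the one besides those 4 was Nt5e, which encodes the ecto-enzyme CD73. The noncoding genes 9430078K24Rik, with 11 of 16 (68.8%), and 4921525O09Rik, with 13 of 20 (65.0%), ranked 23 and 34 among the 1911. Genes outside the members had larger shares, such as Tnfrsf9 (4-1BB, a costimulatory receptor) with 85.7% and Ikzf2 (Helios) with 72.7% of their peaks.

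Dhrs3 was more accessible in D at its promoter, in the gene and far downstream. Its promoter peak, chr4:144892189-144892992, stood at 5.44 and 4.93 rppm in A, at 5.23, 6.64 and 5.43 in B, at 8.44, 11.0 and 10.5 in C and at 12.3, 16.3 and 14.1 in D, for mice 1, 2 and 3 in that order. The populations A and B overlapped, all C libraries lay above all B libraries, and all D libraries lay above all C libraries. D was 2.74-fold above A at this peak. A peak 2.06 kb upstream read 2.28 and 3.52 rppm in A, 3.01, 2.98 and 3.35 in B, 4.71, 4.42 and 6.01 in C and 6.55, 8.73 and 8.36 in D, again with A and B together and C between them and D. A peak 0.759 kb into the gene read 2.5 and 3.32 in A, 5.01, 4.58 and 3.27 in B, 4.71, 5.55 and 7.58 in C and 8.86, 10.0 and 12 in D, with B and C overlapping. Some Dhrs3 sites were almost closed in A, such as that 8.61 kb downstream of the start, where A held 0.544 and 0.403 rppm, or 5 and 4 reads, and D held 8.47, 6.69 and 7.98.

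Another 3 Dhrs3 peaks lay 88.1 to 126 kb downstream, beyond the end of the 35.7 kb gene and in introns of Vps13d, which encodes a lipid transfer protein. The peak at 126 kb, the most accessible of these in A, read 6.74 and 5.03 rppm in A, 7.79, 6.18 and 5.91 in B, 13.1, 8.95 and 10.1 in C and 11.6, 11.8 and 10.3 in D. Here C and D overlapped and A and B overlapped, while all C libraries lay above all B libraries.

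At F13a1 all 7 peaks were higher in D, with the largest log2 differences 41.6 kb (2.15) and 93.9 kb (1.81) downstream, inside the gene, and the smallest 6.63 kb upstream (0.87) and at the promoter (0.99). The promoter peak, chr13:37049881-37050542, read 2.17 and 1.21 rppm in A, 2.56, 2.63 and 2.27 in B, 3.34, 2.37 and 2.75 in C and 4.62, 4.07 and 4.12 in D. B and C overlapped, and D lay above every other library. The peak 38.3 kb downstream, the highest of the gene, read 3.48 and 2.82 in A, 4.57, 4.81 and 2.79 in B, 3.92, 3.08 and 3.01 in C and 13.1, 9.16 and 7.11 in D, so that A, B and C overlapped and only D stood apart. At 93.9 kb downstream the values were 1.3 and 1.21 in A, 2.34, 1.83 and 1.88 in B, 3.92, 3.19 and 3.01 in C and 5.39, 8.0 and 7.54 in D, with no overlap at any step. A peak 6.63 kb upstream read 2.28 and 2.11 in A, 2.78, 2.75 and 2.27 in B, 2.75, 1.54 and 2.89 in C and 5.0, 5.24 and 4.34 in D, with D alone above the rest. The other 3 F13a1 peaks differed between D and A by 1.18 to 2.15 on the log2 scale.

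Cwc27 carried its gains far from its own promoter. Of its 8 peaks, 7 lay between genes, 194 to 242 kb downstream of the start and so beyond the end of the 186 kb gene. The peak at 210 kb, chr13:104606711-104607301, read 4.13 and 6.04 rppm in A, 8.69, 7.67 and 6.82 in B, 16.1, 10.5 and 8.82 in C and 29.3, 15.7 and 18.3 in D. Neighbouring populations C and D overlapped there by 1 library, and A lay below all others. The peak at 206 kb read 3.92 and 2.21 in A, 4.57, 6.07 and 4.67 in B, 6.08, 7.51 and 6.33 in C and 15, 21.4 and 19.2 in D, a 6.04-fold difference between the means of D and A. Of the peaks near 194 kb, the stronger, chr13:104622310-104622964, read 5.0 and 5.44 in A, 6.24, 6.98 and 5.23 in B, 9.62, 7.82 and 6.64 in C and 23.1, 13.2 and 14.7 in D, with D apart and the neighbouring pairs of the others overlapping. The peak at 242 kb, chr13:104574278-104575402, had another course, with 11.3 and 11.9 in A, 17.1, 15.2 and 16.8 in B, 26.3, 22.5 and 22.6 in C and 25.8, 20.5 and 27.0 in D. Its values stepped up from A to B to C without overlap, and C and D overlapped.

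The single Cwc27 peak within the gene, in intron 10 at 27.1 kb, did not pass the threshold and read 6.2 and 4.63 rppm in A and 7.7, 6.4 and 6.84 in D. The printed Cwc27 promoter window lies in a strong peak that the table assigns to the neighbouring gene Srek1ip1. That peak stood at 54.3 ± 0.655 rppm in A (n = 2), 49.6 ± 5.04 in B (n = 3), 52.2 ± 4.76 in C (n = 3) and 56.8 ± 5.85 in D (n = 3). It differed between D and A by 0.06 (SE 0.12) on the log2 scale, with a limma adjusted p of 0.84, so a change at the Cwc27 promoter was not detected while the sites behind the gene were higher.

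**Figure D1:**
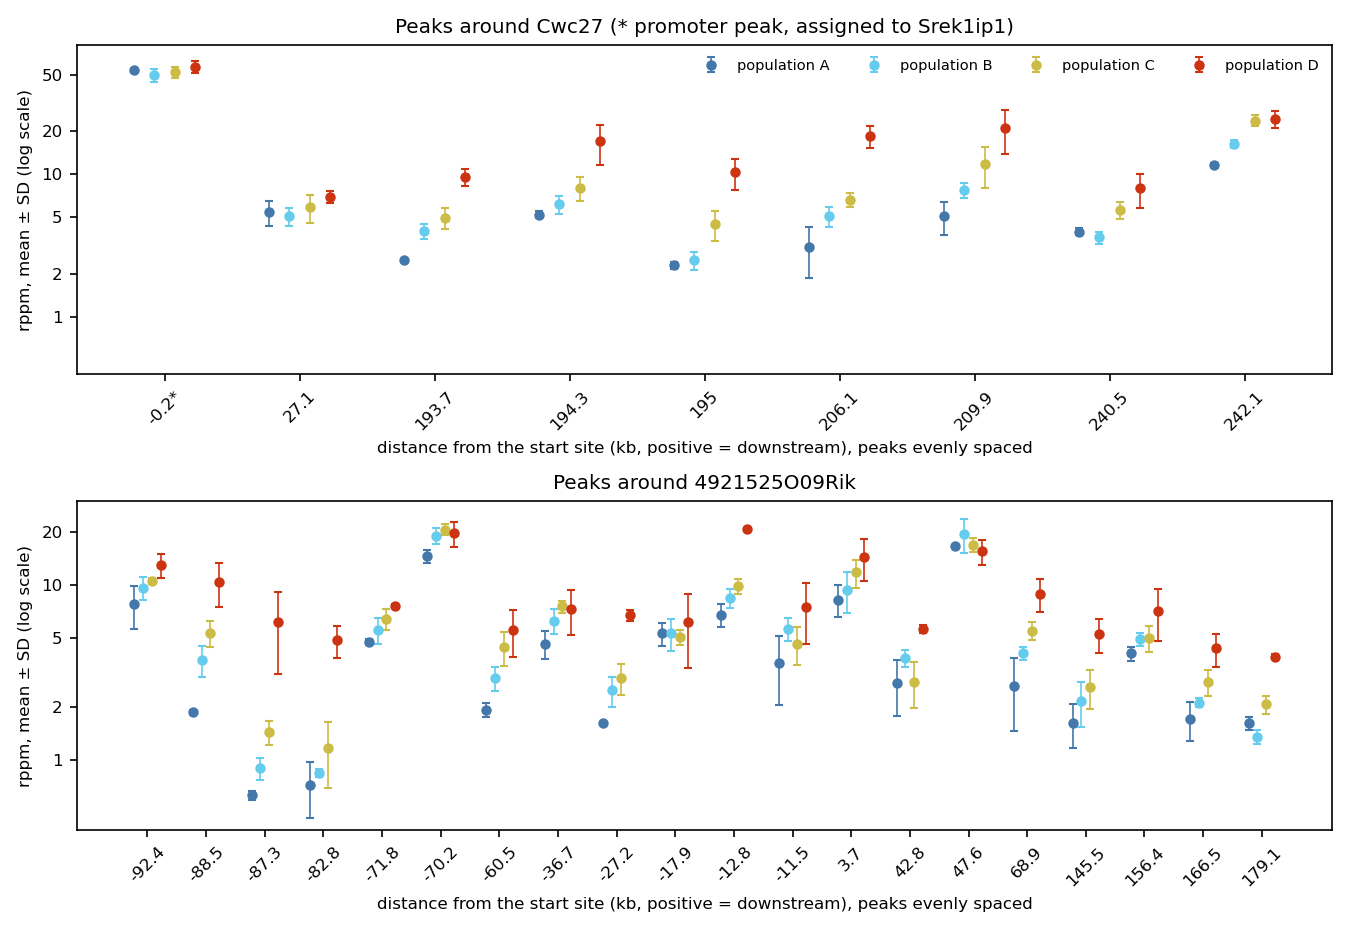
Accessibility in rppm (mean ± SD, log axis) of each peak around Cwc27 (top) and 4921525O09Rik (bottom), ordered by distance from the start in kb and evenly spaced, with 1 colour per population (n = 2 for A, 3 for the others). The Cwc27 promoter peak stands at 49.6 to 56.8 rppm in all populations while the peaks 194 to 210 kb away separate D from A, and at 4921525O09Rik low peaks separate the populations more than the 2 highest in A.

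Gm20755 had the lowest summed signal in A and the steepest course of the 7 genes. Its strongest peak in D, at 83.1 kb and chr3:37981618-37982219, read 2.17 and 1.91 rppm in A, 4.01, 1.6 and 2.91 in B, 7.07, 5.45 and 6.44 in C and 20.0, 14.7 and 14.8 in D. A and B overlapped, and C and D each lay clear of the population before it. The peak at 79.9 kb read 2.72 and 2.21 in A, 3.67, 3.43 and 3.47 in B, 3.14, 5.66 and 5.22 in C and 8.86, 11.2 and 8.11 in D, with B and C overlapping. At 83.8 kb, 2 reads in each A library gave 0.218 and 0.201 rppm, while D held 3.46, 6.69 and 5.62. The peaks at 41.9 and 146 kb were higher at each step without overlap. The former read 1.2 and 1.71 in A, 2.9, 2.98 and 2.04 in B, 3.34, 3.5 and 3.21 in C and 5.78, 6.69 and 6.27 in D. The latter read 1.2 and 1.31 in A, 1.67, 2.17 and 1.83 in B, 3.73, 2.78 and 2.61 in C and 4.24, 3.78 and 4.58 in D. Of the 6 peaks, 4 lay inside the 93.9 kb gene, and no listed peak covered its promoter window.

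All 6 peaks assigned to Mir721 lay in introns of Cux1, which encodes a homeobox transcription factor, and the nearest was 7.21 kb from the hairpin. That peak read 3.48 and 2.72 rppm in A, 2.78, 3.09 and 3.91 in B, 5.69, 4.11 and 4.57 in C and 5.0, 5.53 and 7.24 in D, with C above B and overlapping D. The strongest, 84.4 kb upstream at chr5:136459782-136460529, read 8.59 and 7.75 in A, 9.13, 6.41 and 8.3 in B, 13, 9.46 and 11.0 in C and 20.0, 16.1 and 19.6 in D, with A and B overlapping. At the other 2 named Mir721 peaks D alone stood apart. The peak at 74.3 kb read 5.22 and 4.03 in A, 7.02, 3.66 and 5.07 in B, 5.89, 4.32 and 5.99 in C and 8.86, 8.73 and 8.25 in D. The peak at 91.8 kb read 2.83 and 2.42 in A, 2.45, 3.55 and 2.15 in B, 2.35, 1.95 and 3.52 in C and 5.78, 6.98 and 7.43 in D. Of the 6 peaks within 250 kb that the table assigns to Cux1 itself, 0 were called by limma in either direction, and their log2 differences between D and A ran from -0.3 to 0.42.

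The noncoding gene 4921525O09Rik combined strong gains with smaller differences and with a site, 47.6 kb downstream, that was not higher in D. Its peak 12.8 kb upstream, chr13:52083395-52084497, read 7.5 and 6.04 rppm in A, 7.46, 9.5 and 8.34 in B, 10.8, 9.97 and 8.82 in C and 21.2, 20.8 and 20.4 in D, with D apart and its 3 libraries close together. The peak 70.2 kb upstream read 15.6 and 13.7 in A, 19.6, 16.8 and 20.8 in B, 19.6, 20.1 and 22.4 in C and 22.7, 16.4 and 20.1 in D, so A lay below B and C and D overlapped both. The peak at 3.66 kb, the only one inside the gene, read 9.46 and 7.05 in A, 12.1, 8.36 and 7.62 in B, 14.3, 10.8 and 10.4 in C and 18.9, 12.4 and 12 in D, with neighbouring populations overlapping. At 47.6 kb downstream the direction was the other way, with 16.9 and 16.5 in A, 24.1, 18.8 and 15.7 in B, 17.7, 18.2 and 15.3 in C and 18.1, 12.9 and 15.8 in D, and all populations overlapped. Its peaks 87.3 and 82.8 kb upstream were among the 3 of 70 where only D libraries reached 1.96 rppm, the lowest level that every listed peak reached in at least 3 libraries. That pattern held for 0.602% of all peaks, and the third was the Gm20755 peak 77.6 kb upstream.

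For 9430078K24Rik, 13 of 16 peaks lay in introns of Rad51b, a gene of homologous recombination, and 1 lay in the gene itself. Its largest peak, 278 kb downstream, read 82.6 and 77.1 rppm in A, 87.2, 81.6 and 73.9 in B, 86.1, 74.2 and 71.4 in C and 104, 85.2 and 78.7 in D, and the populations overlapped throughout. The peak 78.3 kb upstream read 11.6 and 12.9 in A, 14.0, 14.1 and 13.4 in B, 13, 15.8 and 16.3 in C and 21.6, 20.7 and 18.5 in D, with D apart. The peak at 299 kb was not higher in D, with 17.2 and 14.4 in A, 16.4, 16.0 and 14.4 in B, 12.6, 14.8 and 15.5 in C and 12.3, 16.0 and 17.6 in D. The populations also overlapped at 312 kb, with 10.4 and 14.4 in A, 10.2, 12.4 and 12.1 in B, 9.22, 15.2 and 13.3 in C and 10.8, 14.0 and 14.8 in D. A peak at 296 kb, near that at 299 kb, read 8.05 and 7.35 in A, 6.79, 7.78 and 8.94 in B, 6.28, 10.2 and 9.02 in C and 18.9, 19.6 and 20.2 in D. Of these 2 sites, D stood apart only at the one at 296 kb.

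Summed over its peaks, each gene kept the order A, B, C, D in its means, but the steps at which the libraries separated differed. Dhrs3 had 18.9 ± 0.663 rppm in A, 23.0 ± 2.21 in B, 38.1 ± 2.78 in C and 60.6 ± 2.7 in D. Gm20755 had 7.85 ± 0.132, 12.4 ± 0.879, 20.0 ± 0.568 and 45.9 ± 1.93, and Cwc27 had 39.2 ± 0.145, 50.6 ± 1.08, 71.2 ± 6.25 and 116 ± 12.7, in the same order. At these 3 genes no neighbouring populations overlapped. F13a1, with 10.7 ± 1.99, 15.5 ± 2.54, 17.9 ± 2.04 and 40.1 ± 2.11, and 4921525O09Rik, with 93.5 ± 9.1, 118 ± 11.6, 130 ± 3.42 and 181 ± 25.3, overlapped between B and C. Mir721, with 21.4 ± 1.76, 22.6 ± 1.61, 27.6 ± 3.36 and 51.0 ± 3.09, and 9430078K24Rik, with 165 ± 3.33, 175 ± 7.01, 177 ± 3.88 and 232 ± 5.71, overlapped between A and B as well as between B and C. By these sums every D library lay above every C library in all 7 genes (10.7% of the 1911 genes with at least 6 peaks), which uses the D libraries that chose them. Every B library lay above every A library in 5 of 7 (14.8%), and every C library above every B library in 3 of 7 (4.92%). By step, the median log2 difference over the 70 peaks was 0.26 for B against A, 0.25 for C against B and 0.64 for D against C, and the steps share libraries. The steps B against A and D against C reuse A or D libraries on which the genes were picked, so their values are descriptions too and nothing is read from their gap to all peaks. For D against C, 35 of 70 peaks passed the threshold upward and none downward (all peaks 4.51% and 1.49%). For B against A limma called none of the 70, as over all peaks (0.0% each way), and 15 were higher and 0 lower at an unadjusted p under 0.05 (all peaks 2.28% and 0.4%).

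**Figure D2:**
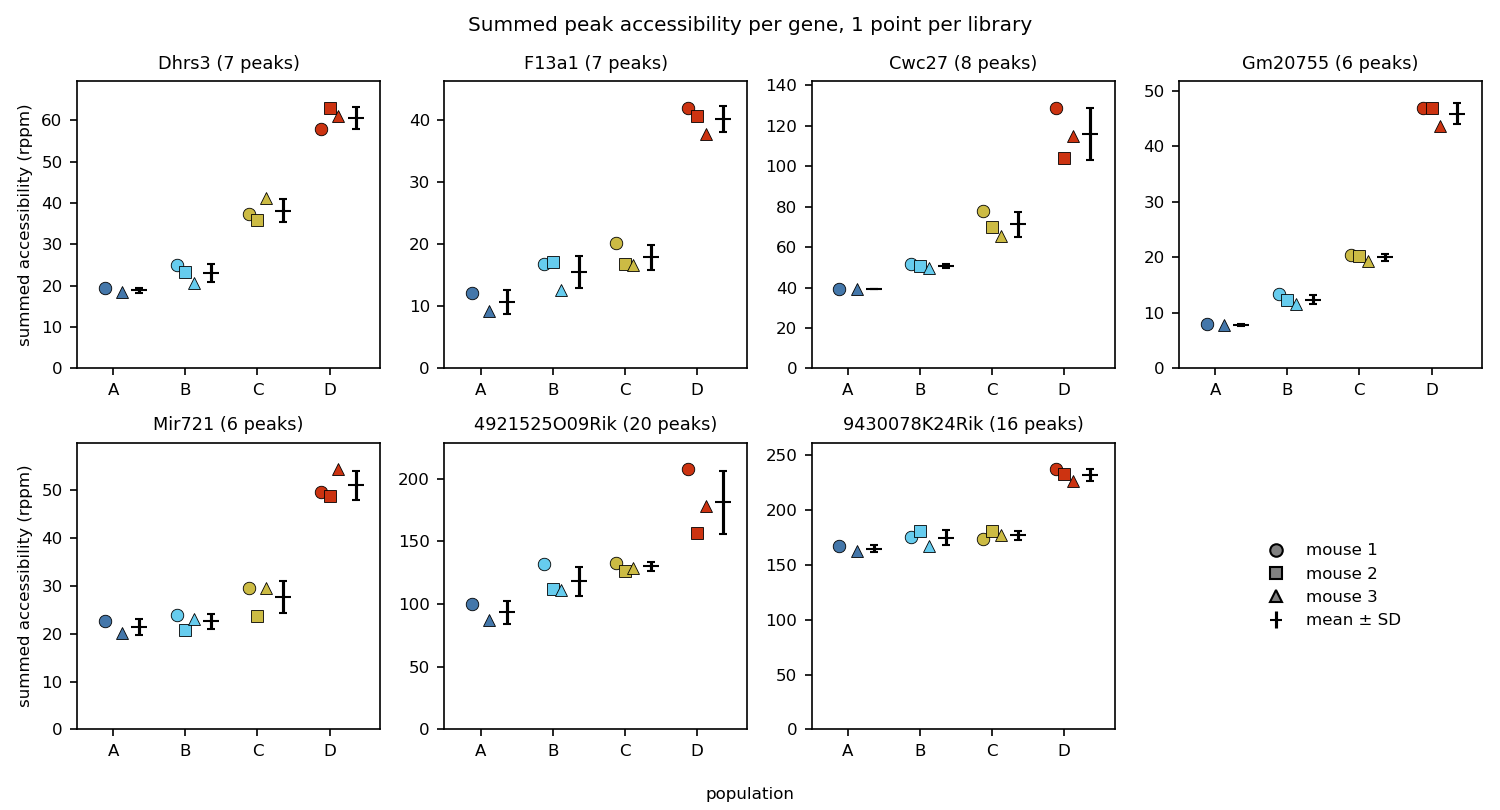
Summed accessibility (rppm) over all peaks of each gene by population, 1 point per library with the mouse as symbol and the mean ± SD beside it (n = 2 for A, 3 for B, C and D). B and C overlap in F13a1, Mir721, 4921525O09Rik and 9430078K24Rik and not in the other genes, and D, whose libraries were used to pick the genes, lies above C (a gap seen in 10.7% of genes with at least 6 peaks).

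The comparison of C with B, which did not enter the choice of genes, sets Ly6C- cells against Ly6C+ cells of the same intermediate reporter gate. By limma, 0 of the 70 peaks were higher and 0 lower after adjustment over all peaks, where 1 of 45508 (0.0022%) was called higher, near Gm17746, and 0.0% lower. Before adjustment, 19 of 70 (27.1%) had a p under 0.05 with C higher and 0 with C lower, while over all peaks 2.77% were higher and 1.23% lower. Every C library lay above every B library at 26 of 70 peaks (37.1%) and below at 0, against 5.73% and 3.87% of all peaks. The estimate was positive at 57 of 70 (81.4%) and at 48.5% of all peaks, with medians of 0.25 and 0.00 on the log2 scale. Peaks of 1 gene share their locus and are not independent. Without mouse 3, whose libraries are the deepest of B, C and D, the number at an unadjusted p under 0.05 was 7 of 70, against 0.978% of all peaks.

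By gene, the 19 peaks included 6 of 7 at Dhrs3, 4 of 8 at Cwc27, 3 of 6 at Gm20755, 2 each at F13a1, Mir721 and 4921525O09Rik and none at 9430078K24Rik. Dhrs3, Cwc27 and Gm20755 had positive estimates at all their peaks, with median log2 differences of 0.59, 0.42 and 0.39. The remaining genes had medians of 0.09 to 0.2.

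Libraries of 1 mouse resembled each other, so the same comparison was also made with the mouse as a block. Then 3 member peaks passed the threshold with C higher and 0 with C lower, of 71 peaks called higher in all (0.156%). The Dhrs3 promoter peak was higher in C by 0.70 (SE 0.15, adjusted p 0.228 without the block and 0.0351 with it). The Gm20755 peak at 83.1 kb was higher by 0.97 (SE 0.22, adjusted p 0.248 and 0.0181), and the Cwc27 peak at 242 kb by 0.51 (SE 0.12, adjusted p 0.339 and 0.0448). All 3 C libraries lay above all 3 B libraries at each. On recovered reads, edgeR called 1 member peak, that of the Dhrs3 promoter, of 58 peaks in all (0.127%), and DESeq2 called 2, Dhrs3 and Gm20755, of 75 (0.165%). Across all alternatives the adjusted p ran from 0.0241 to 1.0 for Dhrs3, 0.0181 to 1.0 for Gm20755 and 0.0448 to 1.0 for Cwc27. For D against A the block gave 61 of 70 (12.5% of all peaks), edgeR 60 (9.93%) and DESeq2 57 (8.32%).

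**Figure D3:**
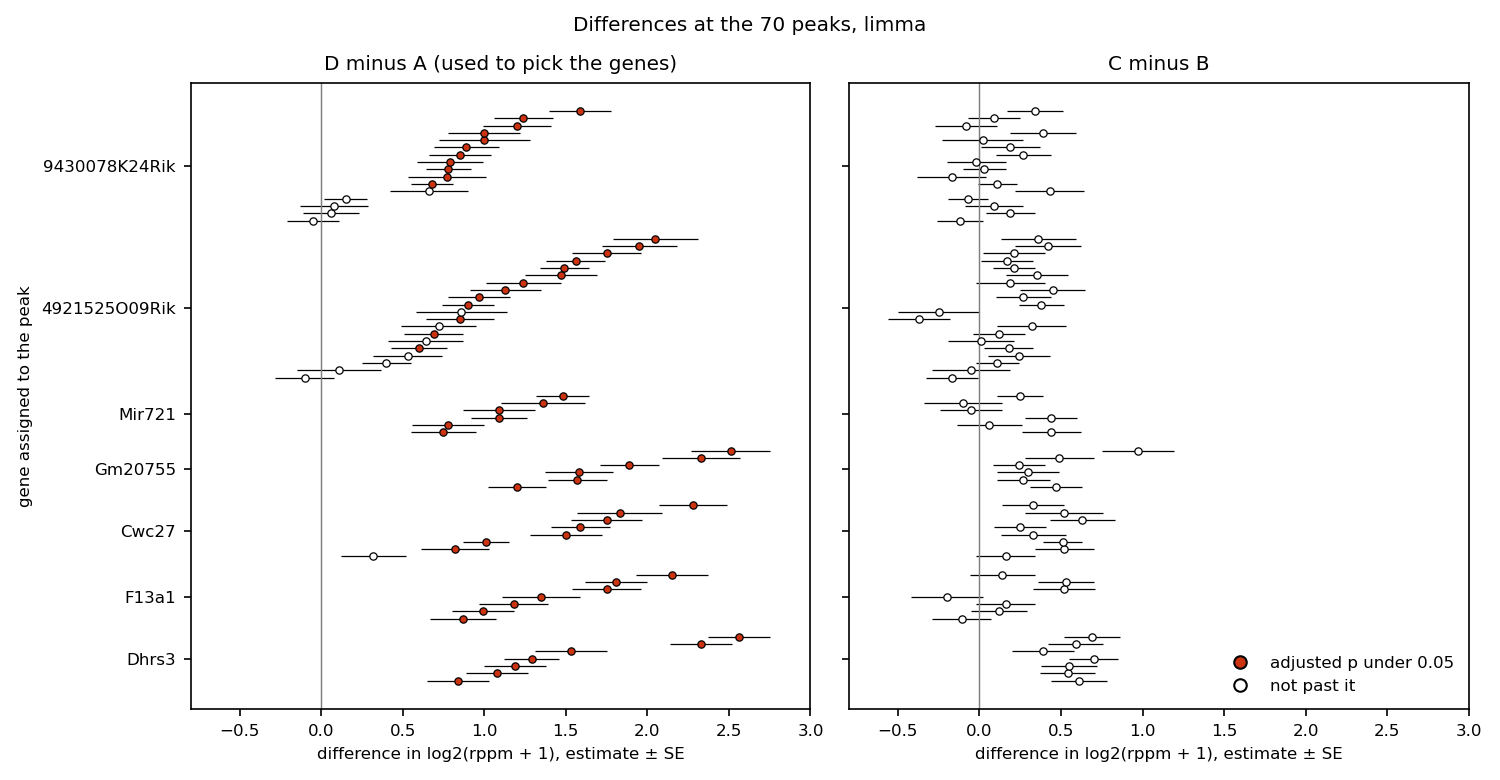
Difference in log2(rppm + 1), estimate ± SE from limma, at each of the 70 peaks for D minus A (left, the contrast that picked the genes) and C minus B (right), grouped by gene and ordered within a gene by the left panel. Filled points have an adjusted p under 0.05: 57 on the left and 0 on the right, where 57 of 70 estimates are positive.

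The 70 peaks were mostly distal. Only 3 (4.29%) lay within 1 kb of an annotated start, against 26.8% of all peaks, and 49 of the 70 lay over 50 kb from the start of their gene, against 15.3% of all. Of the 70, 34 were annotated to introns and 34 between genes. An LTR repeat, a remnant of an endogenous retrovirus, was annotated at 8 peaks (11.4%, against 4.72% of all). Of these, 5 passed the threshold in D against A, against 57 of the 70 (81.4%), so the LTR peaks did not pass more often than the rest. These are descriptions of a chosen set, and most of the assignments to a gene rest on distance alone.

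The peaks of other genes within 250 kb were set beside those of the members. Of 135 such peaks, 33 (24.4%) were called higher in D than A and 4 lower (all peaks 8.7% and 3.74%). F13a1 lay in a region where the neighbours moved too, with 13 of 15 higher. All 7 at Ly86, which encodes MD-1, the partner of the RP105 receptor, and 6 of 8 at Nrn1, which encodes neuritin, were among them. At Gm20755, 6 of 24 neighbouring peaks were higher, 2 of them at Spry1, an inhibitor of receptor signalling through the Ras pathway, and the 4 that were lower all belonged to 5430434I15Rik. Near 4921525O09Rik, 5 of 12 peaks at Gadd45g, a stress-response gene, were higher and 0 of 16 at Sema4d, which encodes a semaphorin. Beside Dhrs3 5 of 19 were higher, beside 9430078K24Rik 3 of 24, beside Mir721 1 of 23 and beside Cwc27 0 of 2. In C against B none of the 135 was called by limma, and 8 were higher and 3 lower at an unadjusted p under 0.05 (all peaks 2.77% and 1.23%).

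**Figure D4:**
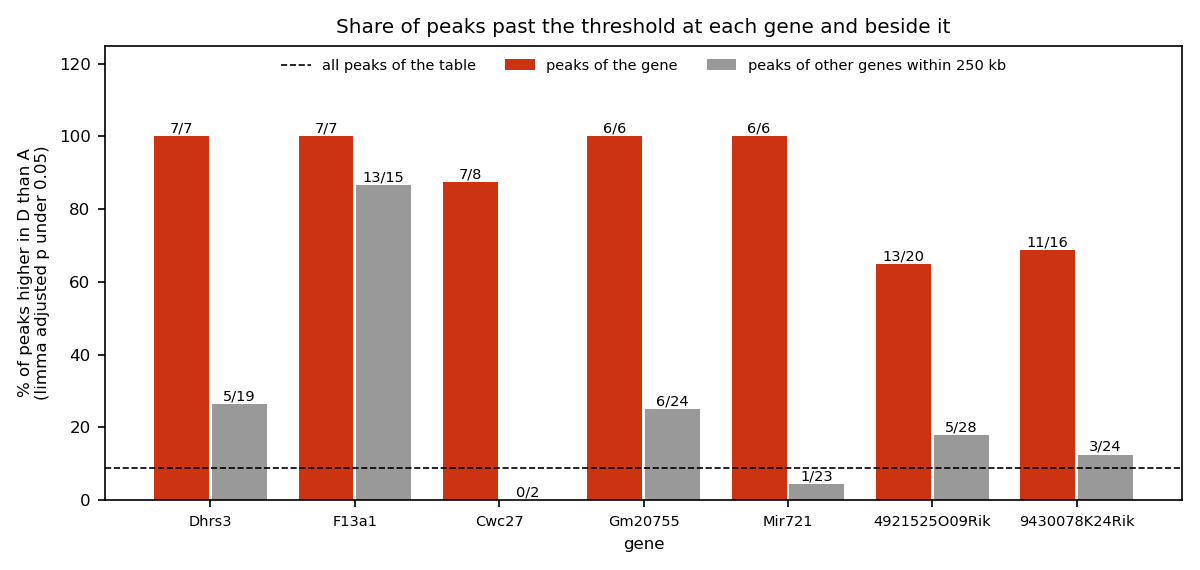
Percent of peaks called higher in D than A (limma adjusted p under 0.05) among the peaks of each gene (red, the set chosen on this contrast) and among peaks assigned to other genes within 250 kb (grey), with the counts above the bars and the level over all peaks dashed. Neighbours reach 13 of 15 at F13a1, 6 of 24 at Gm20755 and 5 of 19 at Dhrs3, and 0 of 2 at Cwc27.

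The wider pathways of the coding members were called at shares near or below those of all peaks (8.7% higher and 3.74% lower). Of 50 peaks at 28 genes of retinoid metabolism and retinoid receptors, 2 were called higher in D than A and none lower. The first lay 86.1 kb upstream of the start of Dhrs4, another retinal reductase (log2 difference 1.25, SE 0.31, adjusted p 0.0154). The second lay 18.1 kb downstream of the start of Rxra, the partner receptor of the retinoic acid receptors (1.39, SE 0.20, adjusted p 0.000333). Of 32 peaks at 22 genes of transglutaminases and the fibrin network, 2 were higher, among them a site 37.9 kb from Plg, the plasminogen gene (0.81), and 1 was lower, near Plat, tissue plasminogen activator (-0.72). Of 34 peaks at 20 genes of spliceosomal cyclophilins and their partners, 2 were higher, near Ppie (2.00) and Prpf8 (1.02), and 1 was lower, near Slu7 (-0.71). None of these peaks was called between C and B by limma. At an unadjusted p under 0.05, C was higher at 1 retinoid and 1 spliceosomal peak, and lower at 1 retinoid peak and 3 of the fibrin network. Over all peaks 2.77% were higher and 1.23% lower at that level.

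Markers of other cells were read beside these results, with counts for D against A, where 8.7% of all peaks were called higher and 3.74% lower. Of the 12 monocyte and macrophage genes, 10 had peaks, and their summed signal was 392 to 417 rppm in A and 313 to 388 in D, with 1 of 31 peaks higher and 3 lower. Of the 8 platelet and megakaryocyte genes, 6 had no listed peak (among them Pf4, Gp1ba, Gp9, Ppbp and Gp6), and the 16 peaks of Itga2b and Itgb3 summed to 248 to 252 rppm in A and 203 to 221 in D, with 2 higher and 2 lower. The part of such cells in the F13a1 values was not tested. The 5 regulatory T cell genes summed to 496 to 514 in A and 620 to 633 in D, with 14 of 42 peaks higher and 3 lower. The genes of that list differed: Ikzf2 had 8 of 11 peaks higher and Ctla4 5 of 15, Il2ra had 1 of 10 higher and 3 lower, and Tnfrsf18 had none of 5 called. Il2ra summed to 189 to 199 rppm in A and 155 to 185 in D. The only Foxp3 peak read 3.12 to 4.35 in A and 3.85 to 5.67 in D and was not called. Cells expressing the red Foxp3 reporter were removed by the gate, and the part of this list in the members' values was not tested.

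The members' profiles over the 11 libraries were alike, with Pearson r of 0.90 to 0.99 between pairs of genes, a likeness that the choice on D against A favours. Outside the members, the genes whose mean log2 signal followed the members' average most closely, of 5495 genes with at least 3 peaks, included Nrn1 (r = 0.993), Gm17745 (0.992), Socs5 (a suppressor of cytokine signalling, 0.992) and Gm4489 (0.991). Nrn1 had a mean log2 signal of 2.29 in A, 2.48 in B, 2.65 in C and 3.23 in D over 9 peaks. All these correlations run over the same 11 libraries and 4 population means, and are descriptions.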

How the data were processed

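Accessibility was analysed from 1 table of 45508 peaks (build mm10) in 11 libraries of 4 sorted populations. The authors deposited RPM values, called rppm per the file headers; Bowtie and MACS2 are named in the submitters' processing notes, and their versions and roles, the read filters, the pooling for peak calling and the definition of the total are not given in the sources used here. Values were whole multiples of 1 read in every library (100% within 6e-04 rppm), and 92.5% to 94.7% of each total lay in listed peaks. Reads carry no molecular identifiers.

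All peaks were fitted with limma 3.58.1 (R 4.3.3) after adding a pseudocount of 1 and taking log2, with a mean for each population, a variance trend and no mouse term; tests were two-sided, with Benjamini-Hochberg adjustment over 45508 peaks and a threshold of 0.05. The code was tested on simulated data. Libraries of the same mouse, numbered in the labels, had correlated deviations from the population means (15 pairs, r 0.18 to 0.56). Counts with the mouse block are therefore printed, with each call on a member that it changed in C against B. For D against A, where the block also changed calls on members, only the counts are printed. Alternatives were the mouse block, quantile or median-of-ratios scaling, pseudocounts of 0.25 and 5, a floor of 5 rppm on the peak mean, only the populations compared, edgeR 4.0.16 and DESeq2 1.42.0 on recovered reads, and leaving out each library or mouse.

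The members and the lists were chosen with earlier results of these data known. Peaks named with values were, per gene, the promoter peak within 1 kb, then those with the highest mean, up to 4, and each peak that was not higher in D; further peaks were added after their values were seen, at Dhrs3 (8.61 kb), Cwc27 (27.1 kb), Gm20755 (83.8 and 77.6 kb), 4921525O09Rik (87.3 and 82.8 kb) and 9430078K24Rik (296 kb). The genes most like the members were the 5 with the highest Pearson r, 1 of which is not reported here. Sequences come from the RefSeq promoter and microRNA tables (GRCm38.p6); peak sequences were not used here.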

Additional observations from a re-analysis of the deposited data

How the results depend on the processing

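In C against B, the count of member peaks called higher was 0 in limma under both pseudocounts, the minimum mean, both scalings and every library or mouse left out (range 0 to 0), and 3 with the replicate block (mouse), 1 with edgeR and 2 with DESeq2; no member peak was called lower under any setting. Over all peaks, 1 was called higher; this was 3 with a pseudocount of 0.25, 0 with a pseudocount of 5, 0 with a minimum mean of 5 rppm, 0 with quantile normalization, 71 with the replicate block (17 lower), 58 with edgeR (9 lower), 75 with DESeq2 (11 lower), and 0 to 22 higher and 0 to 4 lower when 1 library or mouse was left out, the highest without population D of mouse 1. In D against A, the 57 member peaks became 26 of 37 tested with the minimum mean, where fewer peaks enter, and 23 to 58 when a library or mouse was left out; it was 43 without either A library and 23 without mouse 3, which leaves 1 library in A that is assumed to vary like the others. The 3957 peaks called higher over the table became 1922 with the minimum mean and 937 to 4180 with a library or mouse left out (2316 to 4143 over single libraries; 2635 and 2316 without the A library of mouse 1 or 3, 937 without mouse 3). Under the block the D against A counts were 61 members and 5667 in all, and the block changed no other call on the members in C against B. Reversal of direction in D against A was checked only at the 28 member peaks named by the rule, where no called direction reversed under any setting run. At the 70 peaks the shallowest library, population D of mouse 1, held a median of 20 reads, which limits small differences.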
